A study of Mus musculus with 24 samples.

Results

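The comparison asks whether angiotensin II (Ang II) left a different mark on the mouse aorta at 4 months than at 2 months. It was formed as an interaction: the log2 fold change of Ang II over sham at 4 months minus the same log2 fold change at 2 months. A positive value means that the Ang II effect was higher at 4 months, and a negative value that it was lower. The samples were chosen by their labels, as the 16 of 24 libraries taken at 2 or 4 months. They form 4 groups of 4: sham at 2 months, Ang II at 2 months, sham at 4 months and Ang II at 4 months. All mice were wild type, and each received either Ang II or vehicle (sham) under the skin from an osmotic minipump for 2 weeks, with the aorta taken 2 or 4 months later. The labels give no strain, sex or age, and they do not say whether the 4 replicates of a group came from different animals, so p-values measure only how far these samples vary, and part of that may be technical. RNA was taken from homogenised aorta, so each library holds the RNA of every cell in the dissected tissue.

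Angiotensin II is the main effector peptide of the renin-angiotensin system and raises blood pressure through its type 1 receptor on vascular smooth muscle and other cells. Sustained infusion in mice is a standard model of hypertension, and it is known for thickening and stiffening of the aortic wall, deposition of matrix and entry of macrophages. Contractile smooth muscle cells hold the wall's tone with alpha-actin and smooth muscle myosin, and together with fibroblasts they make the elastin and collagen that carry the load.

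The libraries held 19163673 to 35130912 counted reads (median 21767278), and 7.72% to 16.3% of these were mitochondrial. Levels below are in CPM, counts divided by library size and scaled by the trimmed mean of M values over these 16 libraries. Smooth muscle markers were present in all 16 libraries, from 2163 to 10938 CPM summed over 24 contractile genes. Adipocyte markers were more abundant, from 26591 to 42850.1 CPM summed over 15 genes. In bulk tissue, fewer cells of a type and less RNA per cell cannot be told apart. Several libraries stood apart from their group. Sham replicate 4 at 4 months held 1262 CPM of Acta2 against 263 to 286 in the other 3 libraries, and its summed brown adipocyte markers were 2915 CPM against 6324 to 7455. Ang II replicates 3 and 4 at 4 months held liver transcripts, with albumin (Alb) at 119 and 1711 CPM against at most 4.001 in the other 14 libraries. Airway epithelial markers summed to 11078 CPM in sham replicate 3 at 2 months, and to 7634 and 4964 CPM in Ang II replicates 2 and 4 at 4 months, against 55.5 to 2973 elsewhere. Counts are also given without sham replicate 4 at 4 months and without the 2 libraries with liver transcripts. Some named genes and lists, but not all, are given again where leaving out that sham library changed their interaction call. The airway libraries were not left out as a set. Unless stated otherwise, a value after ± is the standard error (SE) of a log2 value over n = 4 libraries a group.

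No gene passed the test for a different Ang II effect at the 2 times. Of 17153 genes tested with edgeR, 0 (0%) had an adjusted p under 0.05 for the interaction, while 1813 (10.6%) had an unadjusted p under 0.05, of which 994 were positive and 819 negative. The median standard error of the interaction was 0.27 on the log2 scale. In simulated data with the same library sizes, the test recovered 1.49%, 16.4% and 56.1% of planted interactions of 1.5-, 2- and 4-fold, so most differences of 2-fold or less would be missed. The count moved with the tool and with 1 library. DESeq2 called 179 genes (1.27% of the 14138 it gave an adjusted p), of which 125 were positive (0.884%) and 54 negative (0.382%), and limma voom with library weights called 467 (2.72%), of which 286 were positive (1.67%) and 181 negative (1.06%). Without sham replicate 4 at 4 months edgeR called 128 genes (0.735% of 17410), 110 positive (0.632%) and 18 negative (0.103%), and without the 2 libraries holding liver transcripts it called 35 (16 positive and 19 negative). A set of 66 genes was called by DESeq2, by limma voom and by edgeR without that sham library.

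The numbers of genes called for the 2 component effects depended on the tool and on single libraries. In edgeR, Ang II at 2 months changed 323 genes (1.88% of those tested), 84 higher and 239 lower, and at 4 months it changed 11 genes (0.0641%), 9 higher and 2 lower. Leaving out 1 library moved these counts between 107 and 434 and between 5 and 184, and limma voom called 775 and 840. All 9 genes higher at 4 months were among the 84 at 2 months. The 239 genes that fell at 2 months had a median log2 fold change of -1.08 then and of -0.20 at 4 months. At 4 months 176 of them (73.6%) were again below sham, beside 44.1% of all genes, and 34 reached an unadjusted p under 0.05 in the same direction, beside 7.47% of all genes. The 84 genes that rose had medians of 1.18 and 0.43, and 63 of them (75%) were again above sham, beside 55.9% of all genes. Being called at 2 months selects genes with a large value at that time, so a smaller value at 4 months is partly fixed by that choice. The 2 effects share no library. Over all genes tested, which are not independent replicates, they correlated with Pearson's r = 0.013 and a Spearman rank coefficient of 0.15. In the authors' deposited tables, 745 genes at 2 months and 1028 at 4 months have an adjusted p under 0.05, and 65 are in both (8.72% and 6.32%), of which 62 have the same sign. Without sham replicate 4 at 4 months, edgeR called 434 genes at 2 months (2.49%) and 184 at 4 months (1.06%), of which 66 were higher (0.379%) and 118 lower (0.678%).

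**Figure D1:**
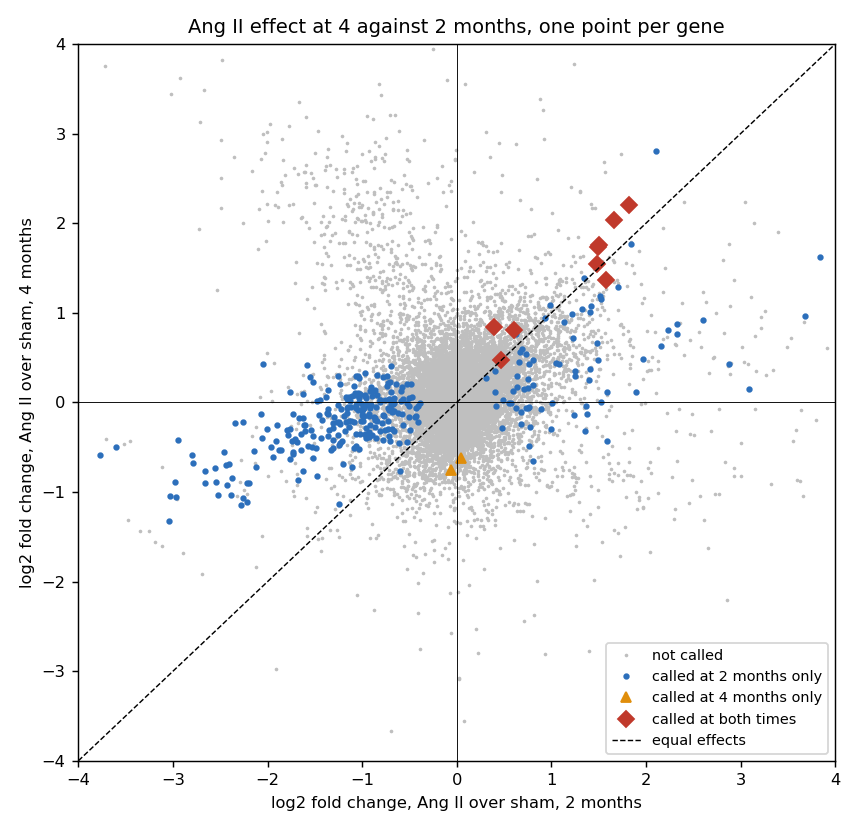
Log2 fold change of Ang II over sham at 2 months (x axis) and at 4 months (y axis), 1 point per gene, with the 314 genes called at 2 months only, the 2 called at 4 months only and the 9 called at both times in colour. The 44 genes beyond 4 on either axis, 1 of them called, are not drawn. Of the 239 genes called lower at 2 months 238 have a smaller effect at 4 months, and the 9 called at both times lie near the dashed line of equal effects.

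An interaction can come from any of the 4 groups. How often 1 group stood apart from the other 12 libraries was counted after the values were seen. In 348 of all 17153 genes (2.03%), all 4 sham libraries at 2 months were above the other 12 libraries, more than for any other group and side. The next were 91 genes (0.531%) with sham at 4 months above the other 12, 52 (0.303%) with Ang II at 2 months above and 48 (0.28%) with Ang II at 4 months below. Among the 994 genes with a positive interaction at unadjusted p under 0.05, 242 had sham at 2 months above the rest, 20 had Ang II at 2 months below, 13 had sham at 4 months below and 8 had Ang II at 4 months above. Among the 819 negative ones, 64 had sham at 4 months above, 29 had Ang II at 2 months above, 17 had Ang II at 4 months below and 5 had sham at 2 months below. These counts describe genes that the interaction itself selected, and they carry no test. In the same fit, sham aortas at 4 months differed from sham aortas at 2 months in 346 genes (2.02%), 43 higher (0.251%) and 303 lower. Ang II aortas differed between the times in 1 gene (0.00583%), the endothelial receptor gene Gpr182, which was higher at 4 months. The sham comparison shares its libraries with both Ang II effects and is not separate evidence. It fell to 0 genes without sham replicate 1 or 4 at 2 months, or without sham replicate 1, 2 or 3 at 4 months.

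The 10 positive interactions of smallest p were Banp, Cd9, Ramp1, Tspan2, Wwp2, Cd200, Mertk, Cbx2, P4ha2 and Tagln2. None passed in edgeR over the 16 libraries, where their adjusted p ran from 0.0529 to 0.198. All 10 were called by DESeq2 and by limma voom, and 9 by edgeR without sham replicate 4 at 4 months. Positive calls were 0.884%, 1.67% and 0.632% of all genes in those fits, in that order. The calls are not separate evidence, since the same counts chose these 10 genes. Without the 2 libraries with liver transcripts edgeR called 7 of them, all but Wwp2, Mertk and Tagln2. Over all genes that fit gave 16 positive calls. In 7 of the 10, all but Cd9, Mertk and Tagln2, the sham libraries at 2 months were above all 12 others. This held for 2.03% of all genes and for 24.3% of the 994 positive genes at unadjusted p under 0.05. High sham values at 2 months make an interaction positive, so the choice of these genes favours this pattern.

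Banp encodes a nuclear protein that binds CpG-rich promoters. The gene is ENSMUSG00000025316 at chr8:121949750-122029258 (mm10). Its levels were 22.3, 21.97, 20.04 and 17.8 CPM in the sham libraries at 2 months and 11.1, 9.07, 9.33 and 12.5 CPM with Ang II at that time. At 4 months they were 11.3, 12.9, 12.7 and 10.7 CPM in sham and 17.2, 14.3, 14.8 and 13.4 CPM in Ang II. All 4 Ang II libraries were thus below sham at 2 months and above sham at 4 months, with no overlap at either time, as held for 7.64% of all genes at 2 months and 9.6% at 4 months. Such opposite separation occurred in 17 of all genes (0.0991%), 11 in this direction (0.0641%). The log2 fold change was -0.97 ± 0.13 (SE) at 2 months, which passed (edgeR adjusted p = 0.00572), and 0.33 ± 0.13 at 4 months, which did not (adjusted p = 0.273). The interaction of 1.29 ± 0.18, a 2.45-fold change in the Ang II to sham ratio, had an adjusted p of 0.0529. Over 27 alternative fits the value stayed between 1.22 and 1.39.

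Cd9 encodes a tetraspanin of the plasma membrane. It was 118, 132, 127 and 161 CPM in sham and 76.7, 92.96, 71.02 and 90.1 CPM in Ang II at 2 months, then 84.4, 94.5, 117 and 97.3 CPM in sham and 164, 135, 111 and 113 CPM in Ang II at 4 months. All 4 Ang II libraries were below sham at 2 months, and at 4 months 2 of the 4 were above all sham libraries. The interaction was 1.11 ± 0.21, made of -0.70 at 2 months (adjusted p = 0.02398) and 0.41 at 4 months (adjusted p = 0.232). Tagln2, a transgelin that binds actin, was 132 to 169.8 CPM in Ang II against 174 to 251 in sham at 2 months, and 176 to 206 against 129 to 165 at 4 months. It was separated in opposite directions as Banp was, with an interaction of 0.81 ± 0.17.

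In a second set of these genes the Ang II effect at 4 months was near 0. Tspan2, a tetraspanin found in differentiated smooth muscle, was 53.4, 45.2, 43.5 and 53.3 CPM in sham and 23.5, 22.4, 22.6 and 21.96 CPM in Ang II at 2 months. At 4 months it was 19.01, 18.5, 17.3 and 26.97 CPM in sham and 28.1, 22.2, 16.2 and 19.5 CPM in Ang II. The sham libraries at 2 months were high and the 3 other groups lay together. Its log2 fold change was -1.11 ± 0.16 at 2 months (adjusted p = 0.00583) and 0.07 ± 0.16 at 4 months (adjusted p = 0.859). Wwp2, a ubiquitin ligase gene that hosts miR-140 in an intron, was 84.6 to 136 CPM in sham and 38.1 to 46.7 in Ang II at 2 months, against 34.1 to 69.7 and 40.5 to 53.9 at 4 months. Its interaction was 1.48 ± 0.29, and 1.78 without sham replicate 4 at 4 months, which at 69.7 CPM stood above the other 3 sham libraries. Ramp1, which encodes the co-receptor for the vasodilator peptide CGRP, had log2 fold changes of -1.23 at 2 months and -0.07 at 4 months, from 27.5 to 41.7 CPM in sham and 12.9 to 16.9 in Ang II at 2 months and 17.1 to 21.3 and 13.8 to 23.2 CPM at 4 months. Also nearer 0 at 4 months, with log2 fold changes at 2 and 4 months in brackets, were Cd200, Cbx2 and P4ha2. Cd200 is a surface ligand that restrains myeloid cells (-0.70 and 0.12), and Cbx2 is a polycomb gene (-1.24 and 0.21). P4ha2 encodes an alpha subunit of the enzyme that hydroxylates collagen prolines (-0.84 and 0.09). In Cbx2 and P4ha2 the group mean was lowest with Ang II at 2 months, at 3.74 and 16.6 CPM. Their means at 4 months were 5.87 and 20.3 CPM in sham and 6.78 and 21.5 CPM in Ang II.

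The 10 negative interactions of smallest p were Enc1, Lurap1, Dlc1, Lactb, Ivd, Klhl25, Scaf4, Tiparp, Uck1 and Sesn2, with adjusted p from 0.184 to 0.198 in edgeR. DESeq2 and limma voom called all 10, and edgeR without sham replicate 4 at 4 months called 7. Negative calls were 0.382%, 1.06% and 0.103% of all genes in those fits, in that order. Here too the same counts chose these 10 genes. Without the 2 libraries with liver transcripts edgeR called 5 of them, Enc1, Lurap1, Dlc1, Klhl25 and Scaf4. The negative calls of that fit over all genes are counted above. Enc1 encodes a kelch protein that binds actin. It was 26.8, 28.6, 33.3 and 29.97 CPM in sham and 53.4, 49.1, 45.5 and 53.01 CPM in Ang II at 2 months, then 40.9, 56.2, 44.4 and 39.3 CPM in sham and 32.6, 23.3, 34.6 and 38.9 CPM in Ang II at 4 months. The Ang II libraries were all above sham at 2 months and all below it at 4 months. Its log2 fold changes were 0.76 ± 0.14 (adjusted p = 0.0146) and -0.48 ± 0.14 (adjusted p = 0.158), and the interaction was -1.24 ± 0.20. Lurap1, an adaptor of cytoskeletal kinases, had the same opposite separation. Its ranges were 9.32 to 11.6 CPM in sham and 14.6 to 17.4 in Ang II at 2 months, and 18.7 to 27.00 and 9.12 to 16.7 at 4 months, with sham at 4 months above the 12 other libraries. Of all genes, 6 (0.035%) were separated in this direction at both times.

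Sesn2, Klhl25 and Dlc1 were highest in the Ang II libraries at 2 months, and at 4 months their groups overlapped. Sesn2, a stress-induced sensor that restrains mTORC1, was 14.2, 9.45, 9.54 and 6.06 CPM in sham and 22.3, 42.97, 39.4 and 41.3 CPM in Ang II at 2 months, then 12.8, 17.2, 14.6 and 11.1 CPM in sham and 10.1, 13.6, 18.5 and 18.3 CPM in Ang II at 4 months. All 4 Ang II libraries at 2 months exceeded every other library. The log2 fold change was 1.89 ± 0.27 at 2 months (adjusted p = 0.00583) and 0.12 ± 0.27 at 4 months (adjusted p = 0.851). Klhl25, a substrate adaptor of a cullin ubiquitin ligase, had effects of 1.36 and -0.32, and Dlc1 of 0.76 and -0.05. The rest were smaller and differed in sign between the times: Tiparp, an ADP-ribosyltransferase (0.48 and -0.28), the pyrimidine salvage kinase gene Uck1 (0.27 and -0.50), Ivd of leucine breakdown (0.33 and -0.34), the mitochondrial gene Lactb (0.28 and -0.30) and Scaf4, a factor of messenger RNA 3' ends (0.29 and -0.30). Of these 5, Tiparp alone passed at either time (adjusted p = 0.0406 at 2 months).

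**Figure D2:**
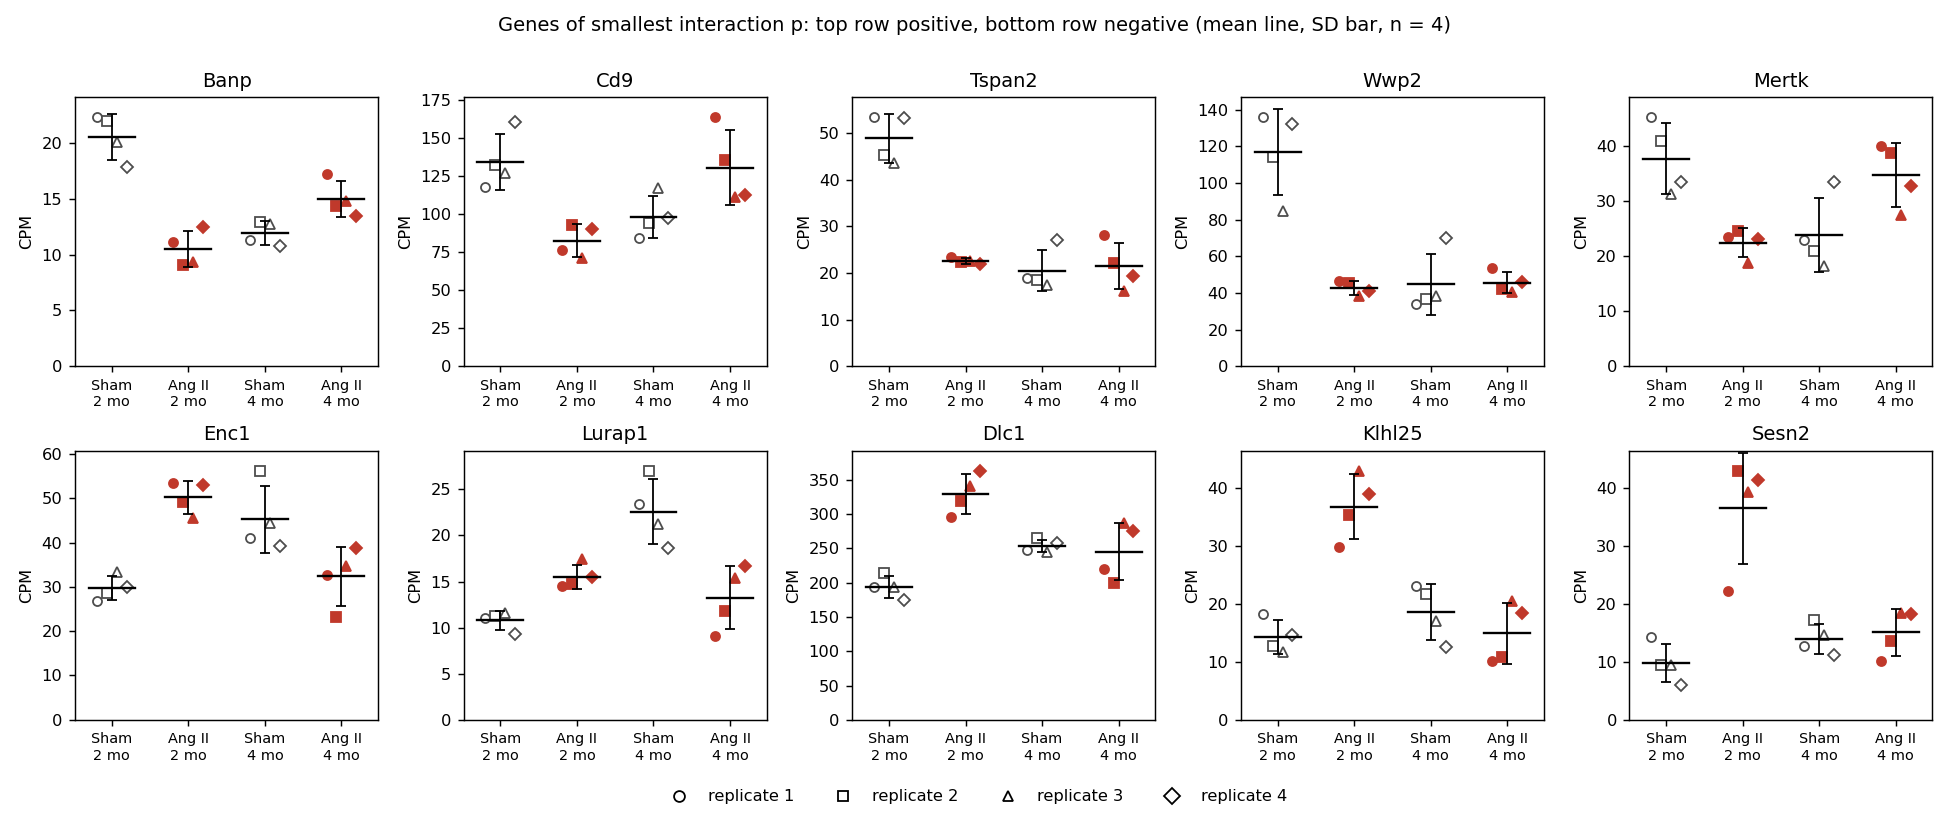
Level in CPM (y axis, from 0) of 5 genes with a positive and 5 with a negative interaction in each of the 16 libraries, with the mean line and SD bar of each group of 4 and 1 symbol per replicate number. In Tspan2 and Wwp2 the sham libraries at 2 months are high and the other groups lie together, in Klhl25 and Sesn2 the Ang II libraries at 2 months are high, and in Banp, Enc1 and Lurap1 the Ang II libraries change sides between the times.

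The gene lists here and below were chosen with earlier results of these data known, so the shares of all genes beside them carry no test. For every list, the shares of all genes called at 2 months are 1.39% for falls and 0.49% for rises. Of 24 contractile smooth muscle genes tested, 11 fell at 2 months (background for falls 1.39%), 0 passed at 4 months, and 0 passed the interaction. The median log2 fold change was -1.39 at 2 months and -0.71 at 4 months, and the median interaction was 1.03 beside 0.01 over all genes. In the interaction 9 of 24 had an unadjusted p under 0.05 in the positive direction, beside 5.79% of all genes, and none in the negative direction. In 15 of the 24, the sham libraries at 2 months were above all others, beside 2.03% of all genes. Summed over the list, sham libraries at 2 months held 7204 to 10938 CPM, Ang II at 2 months 2694 to 4365, sham at 4 months 2163 to 5414 and Ang II at 4 months 2201 to 2839. The list holds genes that striated muscle also expresses, such as Tpm1, Tpm2, Des and Ldb3. In sham replicate 2 at 4 months, which summed to 5048 CPM, skeletal muscle genes summed to 14315 CPM against 148 to 2068 in the rest of its group, while its Acta2 and Myh11 were 286 and 154 CPM. The part of striated muscle in this sum was not tested. Between sham at 2 and 4 months 12 of the 24 fell (background for falls 1.77%), a comparison that shares its sham libraries with both Ang II effects. Without sham replicate 4 at 4 months the median interaction was 1.33 and 3 genes passed (background for positive calls 0.632%).

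Acta2, smooth muscle alpha-actin, was 2669, 1919, 1529 and 3932 CPM in sham and 806, 358, 274 and 313 CPM in Ang II at 2 months. At 4 months it was 263, 286, 272 and 1262 CPM in sham and 371, 261, 134 and 251 CPM in Ang II. It fell at 2 months, with a log2 fold change of -2.52 ± 0.56 (adjusted p = 0.03205), and was -1.03 ± 0.53 at 4 months (adjusted p = 0.429). At 4 months sham replicate 4 alone lay outside the Ang II range. The interaction was 1.49 ± 0.75 (adjusted p = 0.506) and rose to 2.42 without that library (adjusted p = 0.0649), where it still did not pass. Myh11, the smooth muscle myosin heavy chain, had the same shape, from 870.1 to 1462 CPM in sham and 150.2 to 442 in Ang II at 2 months to 132 to 629 and 69.7 to 187 at 4 months, with an interaction of 1.31 ± 0.71. The contractile gene of smallest interaction p was Mylk, the kinase that phosphorylates myosin light chain. It was 256 to 394 CPM in sham and 93.6 to 164 in Ang II at 2 months, and 76.6 to 159.7 and 72.2 to 107 at 4 months, with an interaction of 1.03 ± 0.32. Among the receptors and channels of smooth muscle, 3 of 19 fell at 2 months (background for falls 1.39%). Of these 19, Pde5a, the phosphodiesterase that degrades cyclic GMP, had the smallest interaction p. It had -0.97 ± 0.16 at 2 months (adjusted p = 0.00959) and 0.08 ± 0.16 at 4 months. Its interaction was 1.05 (adjusted p = 0.198), and 1.23 without sham replicate 4 at 4 months, where it passed (adjusted p = 0.0208).

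Smooth muscle genes are known to be driven by serum response factor bound to CArG boxes. Since 11 contractile genes fell together, their promoters were searched in the 250 bases before the start in the RefSeq table (GRCm38.p6), on both strands, for CC and GG separated by 6 bases with at most 1 G or C among them. The motif was in 4 of the 19 contractile genes with a sequence (21.1%), of 24 in the list, and in 9.78% of all 27025 genes. It was also in 6 of the 21 immediate early genes with a sequence (28.6%), a list described below in which 7 genes rose at 2 months. The motif was thus not particular to the list that fell. The promoter of Acta2 is shown because it is the list's most abundant marker and holds 2 matches, in capitals (chr19:34255374-34255623, minus strand).
Acta2: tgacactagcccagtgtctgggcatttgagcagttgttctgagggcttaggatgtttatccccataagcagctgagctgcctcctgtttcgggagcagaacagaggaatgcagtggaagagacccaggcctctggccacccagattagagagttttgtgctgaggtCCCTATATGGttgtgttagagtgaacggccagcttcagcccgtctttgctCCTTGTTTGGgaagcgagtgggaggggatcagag

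Of 22 elastic fibre and crosslinking genes, 5 fell at 2 months (background for falls 1.39%) and 0 passed at 4 months, and 7 had a positive interaction at unadjusted p under 0.05 (background 5.79%). Their median log2 fold change went from -0.78 to -0.12. Between sham at 2 and 4 months 9 of the 22 fell (background for falls 1.77%), a comparison that shares its sham libraries with both Ang II effects. In 7 of the 22 the sham libraries at 2 months were above all others, beside 2.03% of all genes. Eln, which encodes elastin, was 1114, 793, 525 and 1489.8 CPM in sham and 241, 120.1, 86.96 and 117 CPM in Ang II at 2 months, then 63.2, 73.97, 63.7 and 392.4 CPM in sham and 140.2, 121, 54.7 and 78.3 CPM in Ang II. Sham replicate 4 again stood far above the other sham libraries at 4 months, and those 3 were below 3 of the 4 Ang II libraries. The interaction of 2.20 ± 0.82 did not pass (adjusted p = 0.376), while without that library it was 3.35 and passed (adjusted p = 0.0233). Ltbp1, which anchors latent TGF-beta to microfibrils, had the smallest interaction p of the list, with -1.73 ± 0.35 at 2 months (adjusted p = 0.0191) and -0.13 ± 0.34 at 4 months. Without that library 6 genes of this list passed the interaction (background for positive calls 0.632%), Ltbp1 among them at 2.22 (adjusted p = 0.012). The list's median interaction was 0.92 without that library and 0.62 with it.

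Of 18 collagen genes, 2 fell at 2 months (background for falls 1.39%), 0 passed at 4 months, and 17 had an interaction above 0, beside 51.8% of all genes. The median effect was -0.44 at 2 months and 0.12 at 4 months. Between sham at 2 and 4 months 10 of the 18 fell (background for falls 1.77%), a comparison that shares its sham libraries with both Ang II effects. In 8 of the 18 the sham libraries at 2 months were above all others, beside 2.03% of all genes. Col1a1, a chain of the main fibrillar collagen, was 416, 288, 351 and 413 CPM in sham and 259, 243, 227 and 213 CPM in Ang II at 2 months, and 115, 129, 95.8 and 263 CPM and 199.6, 177, 128 and 179 CPM at 4 months. The Ang II libraries were all below sham at 2 months, and at 4 months they lay among the sham libraries. Its log2 fold change did not pass at either time (-0.64 ± 0.25 and 0.18 ± 0.25), nor did the interaction of 0.82 ± 0.36 (adjusted p = 0.439), although it passed at 1.23 without sham replicate 4 (adjusted p = 0.0293). Without that library 5 collagens passed the interaction (background for positive calls 0.632%), Col1a1, Col1a2, Col4a5, Col4a6 and Col18a1. The collagen of smallest interaction p was the microfibrillar chain Col6a3, at -0.57 and 0.23. Of 20 matricellular and TGF-beta genes, 5 fell at 2 months and 5 had a positive interaction at unadjusted p under 0.05 (backgrounds 1.39% and 5.79%). The glycoprotein gene Tnc, tenascin C, led them with -1.26 ± 0.28 (adjusted p = 0.0334) and 0.29 ± 0.28. Tnc was 31.1 to 53.2 CPM in sham and 11.5 to 18.1 in Ang II at 2 months, and 8.85 to 22.4 and 13.2 to 22.6 at 4 months. Between sham at 2 and 4 months 6 of these 20 genes fell (background for falls 1.77%). Without sham replicate 4 at 4 months Tnc, Postn and Bgn passed the interaction (background for positive calls 0.632%), Tnc at 1.90 (adjusted p = 0.026) against 1.55 with it. Among 12 osteochondrogenic genes 1 fell at 2 months, Mgp, an inhibitor of wall calcification, with -1.23 ± 0.29 (adjusted p = 0.0435) and -0.24 ± 0.29 at 4 months. Among 20 Wnt ligands and antagonists 1 fell, the secreted antagonist Wif1, with -3.78 ± 0.89 at 2 months (adjusted p = 0.0446) and -0.59 ± 0.86 at 4 months. Both passed the interaction without that sham library, Mgp at 1.44 (adjusted p = 0.0372) and Wif1 at 5.11 (adjusted p = 0.0351), against 0.99 and 3.19 with it. Wif1 was 3.21 to 5.44 CPM in sham and 0 to 0.446 in Ang II at 2 months. At 4 months it was 0.114 to 2.05 CPM in sham, the highest being replicate 4, and 0.185 to 0.695 in Ang II. Levels so near 0 leave the size of its interaction uncertain.

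**Figure D3:**
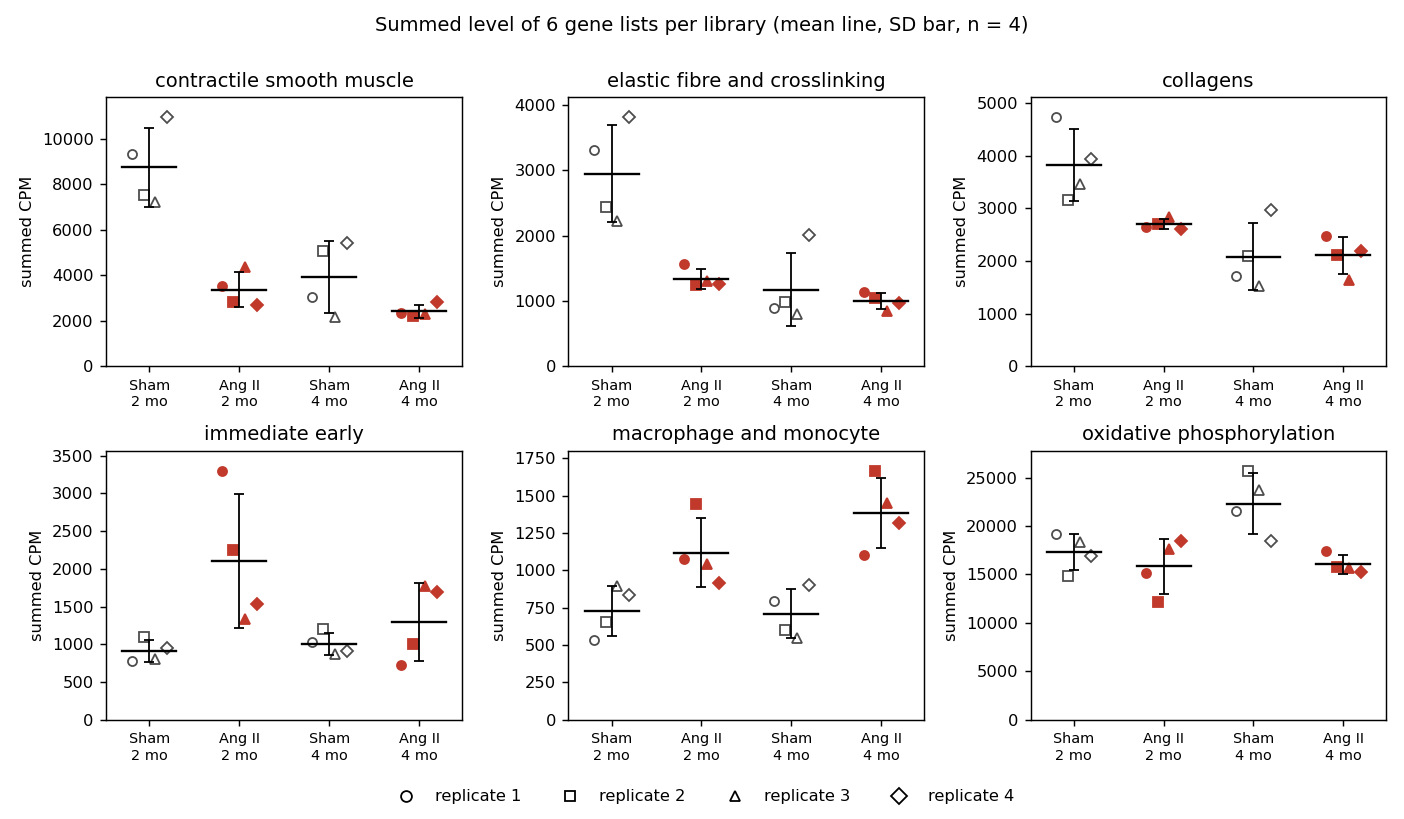
Summed CPM (y axis, from 0) of 6 gene lists in each of the 16 libraries, with the mean line and SD bar of each group of 4 and 1 symbol per replicate number. Contractile, elastic fibre and collagen sums are highest in sham at 2 months, immediate early sums are above sham in all Ang II libraries at 2 months but in 2 of 4 at 4 months, and macrophage sums are above sham in all Ang II libraries at both times.

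The TAM receptors, Tyro3, Axl and Mertk, with their ligands Gas6 and Pros1, serve the clearance of dying cells and the restraint of inflammation. All 5 had an interaction above 0 (51.8% of all genes), and 3 of them, Mertk, Pros1 and Tyro3, had an unadjusted p under 0.05 (background 5.79%). None passed in edgeR over the 16 libraries. Mertk was 45.2, 40.8, 31.2 and 33.5 CPM in sham and 23.4, 24.5, 18.7 and 23.1 CPM in Ang II at 2 months, then 22.9, 20.8, 18.2 and 33.4 CPM in sham and 39.99, 38.7, 27.4 and 32.7 CPM in Ang II. At 2 months the Ang II libraries were all below sham, and at 4 months 3 of the 4 sham libraries were below every Ang II library, with sham replicate 4 as the exception. The interaction was 1.29 ± 0.26, from -0.75 ± 0.18 (adjusted p = 0.05101) to 0.54 ± 0.18 (adjusted p = 0.207), and 1.49 without sham replicate 4 (adjusted p = 0.0144). Axl, the receptor in fibroblasts and smooth muscle, was -0.58 ± 0.25 and 0.11 ± 0.25, with an interaction of 0.69 ± 0.35. It was 112 to 209 CPM in sham and 77.96 to 116 in Ang II at 2 months, and 55.5 to 124 and 67.3 to 96.5 at 4 months, overlapping at both times.

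Immediate early genes, the transcription factors and phosphatases induced within minutes of a stimulus, moved in the opposite direction. Of 25 tested, 7 rose at 2 months (background for rises 0.49%) and 0 passed at 4 months. The median log2 fold change was 1.28 at 2 months and 0.42 at 4 months, and 7 had a negative interaction at unadjusted p under 0.05 beside 4.77% of all genes, while 1 had a positive one. Nr4a1, an orphan nuclear receptor, was 43.3, 59.4, 36.5 and 28.6 CPM in sham and 499, 487, 226 and 215 CPM in Ang II at 2 months, then 166, 169, 99.9 and 47.03 CPM in sham and 32.2, 47.1, 182 and 273 CPM in Ang II. It rose at 2 months by 3.09 ± 0.63 (adjusted p = 0.0214). At 4 months the Ang II libraries fell into 2 low (replicates 1 and 2) and 2 high (replicates 3 and 4), on either side of most sham libraries, and the log2 fold change was 0.15 ± 0.58. The interaction was -2.94 ± 0.84 (adjusted p = 0.266). The high replicates 3 and 4 are the libraries with liver transcripts, and without both the interaction was -4.69 and passed (edgeR adjusted p = 0.0245). Nr4a2, its paralogue, had the smallest interaction p of the list. It was 7.47, 4.85, 5.83 and 8.77 CPM in sham and 14.04, 23.3, 14.2 and 18.5 CPM in Ang II at 2 months, and 4.66 to 7.93 and 4.71 to 8.14 CPM at 4 months. The Ang II libraries at 2 months were above every other library, and the interaction was -1.51 ± 0.35 (adjusted p = 0.206). Without sham replicate 4 at 4 months it was -1.65 and passed (adjusted p = 0.0409).

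Summed over the list, immediate early genes were 785, 1095, 807 and 947 CPM in sham and 3298, 2254, 1332 and 1537 CPM in Ang II at 2 months. At 4 months the sums were 1025, 1198, 872 and 905 CPM in sham and 725, 1007, 1777 and 1693 CPM in Ang II. All Ang II libraries were above all sham libraries at 2 months only, and replicates 3 and 4 of Ang II were again above sham at 4 months.

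NR4A genes are classical targets of cyclic AMP signalling through CREB, which binds the half-site TGACG. In the 250 bases before the start, TGACG or its complement CGTCA was in 14 of the 21 immediate early genes with a sequence (66.7%), of 27 in the list, and in 19.8% of all genes in the table. Nr4a1 (chr15:101266596-101266845, plus strand) and Nr4a2 (chr2:57124004-57124253, minus strand) are shown because they are the members described by library above. Each holds 4 matches, in capitals, which describe the letters and not a bound site.
Nr4a1: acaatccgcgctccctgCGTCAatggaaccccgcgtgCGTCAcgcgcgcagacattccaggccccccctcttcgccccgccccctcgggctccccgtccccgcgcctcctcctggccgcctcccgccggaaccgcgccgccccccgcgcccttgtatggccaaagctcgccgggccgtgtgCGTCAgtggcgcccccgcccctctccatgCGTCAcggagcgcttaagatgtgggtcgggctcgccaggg
Nr4a2: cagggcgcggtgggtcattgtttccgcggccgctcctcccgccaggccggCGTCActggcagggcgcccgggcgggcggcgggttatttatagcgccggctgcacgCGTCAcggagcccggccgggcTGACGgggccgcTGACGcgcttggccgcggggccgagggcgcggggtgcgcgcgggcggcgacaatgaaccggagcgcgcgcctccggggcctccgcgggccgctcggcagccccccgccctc

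In the clock list the Ang II libraries at 2 months stood apart. Of 19 circadian genes, 5 fell at 2 months (background for falls 1.39%) and 0 passed at 4 months. In 5 of the 19 (26.3%, beside 0.181% of all genes) the Ang II libraries at 2 months were below all others: Bhlhe41, Ciart, Dbp, Per2 and Tef. Sham aortas did not pass for any clock gene between the times, with a median log2 change of 0.01. Tef, a transcription factor of the clock's output and the member of smallest interaction p, was 204, 245, 212 and 186 CPM in sham and 102, 119.5, 153 and 147 CPM in Ang II at 2 months. At 4 months it was 202 to 259 CPM in sham and 215 to 226 CPM in Ang II. Its log2 fold change was -0.70 ± 0.12 (adjusted p = 0.0121) and -0.07 ± 0.12, with an interaction of 0.63 ± 0.17 that did not pass (adjusted p = 0.256). Per2, a repressor in the clock's core loop, was 15.7 to 26.6 CPM in sham and 4.85 to 11.8 in Ang II at 2 months, against 17.4 to 22.9 and 16.1 to 19.1 at 4 months. The labels give no hour of collection.

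Of 19 nuclear genes of oxidative phosphorylation, 0 passed the interaction. All 19 values were below 0, while 51.8% of all genes were above 0, with a median of -0.37, and 4 had an unadjusted p under 0.05 (background 4.77%). The median Ang II effect was -0.11 at 2 months and -0.49 at 4 months, where 16 of 19 had an unadjusted p under 0.05 (background for this direction 7.47%) and 0 passed. From 2 to 4 months the median log2 change was 0.38 in sham, with all 19 above 0 (51.2% of all genes). In Ang II aortas it was 0.02, with 11 of 19 above 0 (51.7% of all genes). No gene of the list passed in either comparison, and both share their libraries with the Ang II effects. Sdha, a subunit of succinate dehydrogenase with the smallest interaction p, was 1623, 1251, 1512 and 1375 CPM in sham and 1398, 1113, 1459.9 and 1537 CPM in Ang II at 2 months, and 1779, 2079.6, 2020.2 and 1642 CPM in sham and 1379, 1266, 1209 and 1220.4 CPM in Ang II at 4 months. The groups overlapped at 2 months and were apart at 4 months, with an interaction of -0.50 ± 0.17 (adjusted p = 0.322). Brown adipocyte markers, 12 genes rich in mitochondria, were high in some of the same libraries. Their sums were 4434, 2738, 4217 and 2450.2 CPM in sham and 1736, 2055, 3457 and 3439 CPM in Ang II at 2 months. At 4 months they were 6631, 7455, 6324 and 2915 CPM in sham and 3153, 3101, 2891 and 3208 CPM in Ang II. Sham replicate 4, low for brown adipocyte markers, was also the lowest sham library at 4 months for the respiratory list, at 18403 CPM against 21509 to 25688. A fit with a brown adipocyte score as covariate is given below only as counts over all genes. The part of brown fat in the values of this list was not tested.

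Of 18 genes of fatty acid and triglyceride synthesis, 16 had an interaction below 0, while 51.8% of all genes were above 0. In the negative direction 4 had an unadjusted p under 0.05 (background 4.77%). At 2 months the list summed to 55621 CPM in sham replicate 4, against 16985 to 22046 in the rest of its group. Scd1, the desaturase that makes monounsaturated fatty acids, was 5188, 3553, 3644 and 1634 CPM in sham and 3516, 2425, 5439 and 6126 CPM in Ang II at 2 months, then 4823, 7793, 4433 and 8048 CPM in sham and 2697, 2959, 2198 and 2376 CPM in Ang II. It was below sham in every Ang II library at 4 months and mixed at 2 months. Neither effect passed (0.32 ± 0.33 and -1.29 ± 0.34, adjusted p = 0.117 at 4 months), and the interaction was -1.62 ± 0.47 (adjusted p = 0.275). Of 15 glycogen and pyruvate genes all had an interaction below 0, while 51.8% of all genes were above 0, and their median was -0.50. Among them Pfkfb3, a regulator of glycolysis, had log2 fold changes of 0.60 at 2 months and -0.26 at 4 months. The 2 genes that fell at 4 months (0.0117% of all) were Pcca, of propionate breakdown (-0.62 ± 0.10, adjusted p = 0.0486), and Stradb, a pseudokinase partner of LKB1 (-0.75 ± 0.13, adjusted p = 0.0447). At 2 months they were 0.04 ± 0.10 and -0.07 ± 0.12, and their interactions of -0.66 ± 0.15 and -0.69 ± 0.18 did not pass (adjusted p = 0.198 and 0.228). Pcca was 198 to 225 CPM in sham and 134 to 140.4 CPM in Ang II at 4 months, with no overlap, against 132 to 188 and 139.8 to 178 at 2 months.

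Of 22 macrophage and monocyte genes, 6 rose with Ang II at 2 months (background for rises 0.49%) and 4 at 4 months (0.0525%), and 0 passed the interaction. The list was chosen with earlier results of these data known, so the shares beside it carry no test. Over all genes, 9 rose at both times. The 9 genes that rose at both times were Cd68, Trem2, Ms4a7, Wfdc17, Hpgds, Cd300a, Uap1l1, Heph and Renbp, and in all 9 the Ang II libraries were above sham at each time. Of all genes, 66 (0.385%) were above sham in this way at both times and 26 (0.152%) below. Being called higher at both times favours such separation, so in these 9 genes it is not a further result. Cd68, a lysosomal protein of macrophages, was 9.12, 11.5, 8.08 and 18.6 CPM in sham and 37.4, 39.01, 30.3 and 27.2 CPM in Ang II at 2 months, and 9.46, 9.097, 11.5 and 12.2 CPM in sham and 29.2, 37.5, 39.3 and 36.4 CPM in Ang II at 4 months. The levels of the Ang II groups, like those of the sham groups, overlapped between the times. Its log2 fold change was 1.504 ± 0.22 at 2 months (adjusted p = 0.00583) and 1.75 ± 0.22 at 4 months (adjusted p = 0.0042), and the interaction was 0.25 ± 0.31 (adjusted p = 0.822). Wfdc17, a secreted protein of activated macrophages, had the largest effects of the 9, 1.82 ± 0.20 and 2.20 ± 0.21. Trem2, a lipid-sensing receptor of foamy macrophages, had 1.48 ± 0.22 and 1.54 ± 0.23, and Ms4a7, a membrane protein of macrophages, 1.66 ± 0.23 and 2.04 ± 0.24. Hpgds, which makes prostaglandin D, had 1.49 and 1.74, and Cd300a, an inhibitory receptor of myeloid cells, 1.57 and 1.36, the only 1 of the 9 with an interaction below 0 (-0.21 ± 0.31).

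The 3 smallest effects among the 9 were those of genes not specific to macrophages. Uap1l1, of nucleotide sugar metabolism, had effects of 0.39 ± 0.09 and 0.84 ± 0.09, and its interaction of 0.45 ± 0.13 had the smallest p of the 9 (adjusted p = 0.272). Heph, a copper-dependent iron oxidase, had 0.46 and 0.48, and Renbp, of sugar amine metabolism, 0.60 and 0.81. Over the 22 macrophage and monocyte genes the median effect was 0.65 and 0.97, and the median interaction was 0.20, with 20 of 22 above 0 and 0 at an unadjusted p under 0.05. Summed levels were 532 to 899 CPM in sham and 915 to 1446 in Ang II at 2 months, and 548 to 904 and 1103 to 1666 at 4 months. Missing the threshold does not show that the effects were equal, since the SE of the Cd68 interaction alone was 0.31.

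**Figure D4:**
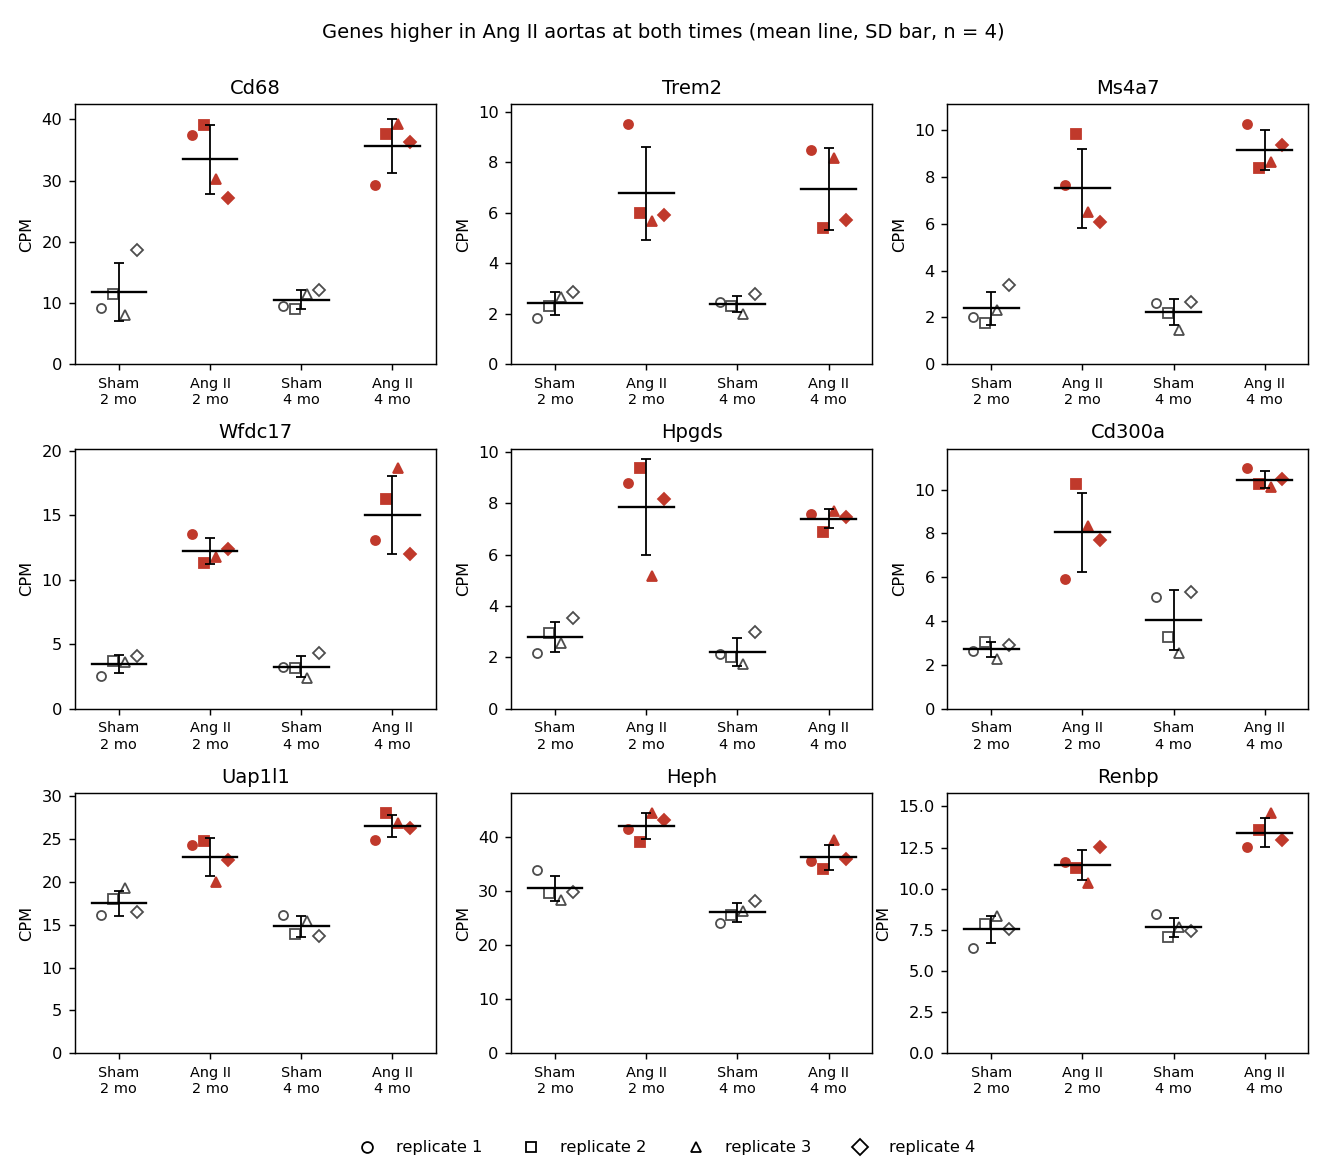
Level in CPM (y axis, from 0) of the 9 genes that rose in Ang II aortas at both times, in each of the 16 libraries, with the mean line and SD bar of each group of 4 and 1 symbol per replicate number. In each panel the 4 Ang II libraries lie above the 4 sham libraries of the same time, a pattern that the choice of these genes favours.

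The remaining immune lists had few calls. No gene of the T and NK cell (16 tested), B and plasma cell (15) or antigen presentation (13) lists passed in any of the 5 comparisons, and 1 of 18 chemokine and cytokine genes rose at 2 months, the monocyte attractant gene Ccl8. The B and plasma cell list had a median interaction of -0.85, but 0 of 15 had an unadjusted p under 0.05, and its sums overlapped, at 210.0 to 1491 CPM in sham and 548 to 3145 in Ang II at 2 months. Among 18 endothelial genes 1 rose at 2 months, Cldn5, a tight junction protein, with 1.40 ± 0.18 (adjusted p = 0.00572) and 0.24 ± 0.17 at 4 months. Its interaction of -1.16 ± 0.25 did not pass (adjusted p = 0.198). It was 56.00 to 84.4 CPM in sham and 144 to 222 in Ang II at 2 months, and 63.2 to 101 and 85.04 to 114 at 4 months. Of 18 stress and ATF4 genes 3 rose at 2 months (background for rises 0.49%) and the median interaction was -0.01. Sesn2 and Cebpb (-2.02 ± 0.46) were negative, both passing without sham replicate 4 at 4 months (background for negative calls 0.103%). The chaperone genes Hsph1 (0.84 ± 0.22) and Hspa1b (1.30 ± 0.51) were positive.

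Among 20 matrix proteases and inhibitors, Adamts4, an aggrecan-cleaving protease, rose at 2 months, and the inhibitor genes Timp3 and Timp4 fell. Timp3, the inhibitor bound to matrix, had the smallest interaction p of these. It was 179.5 to 243 CPM in sham and 135 to 148 in Ang II at 2 months, and 144 to 200.2 and 156 to 215 at 4 months. Its log2 fold changes were -0.58 ± 0.13 (adjusted p = 0.0355) and 0.18 ± 0.13. Of 16 interferon-stimulated genes 1 rose at 2 months, the lymphoid factor gene Irf4, and 3 had a positive interaction at unadjusted p under 0.05 (background 5.79%). Of 15 general adipocyte genes 1 rose at 2 months, the activin receptor gene Acvr1c, with 0.71 ± 0.12 (adjusted p = 0.0104) and 0.15 ± 0.12 at 4 months. A negative interaction at unadjusted p under 0.05 was found in 5 of the 15 (background 4.77%).

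**Figure D5:**
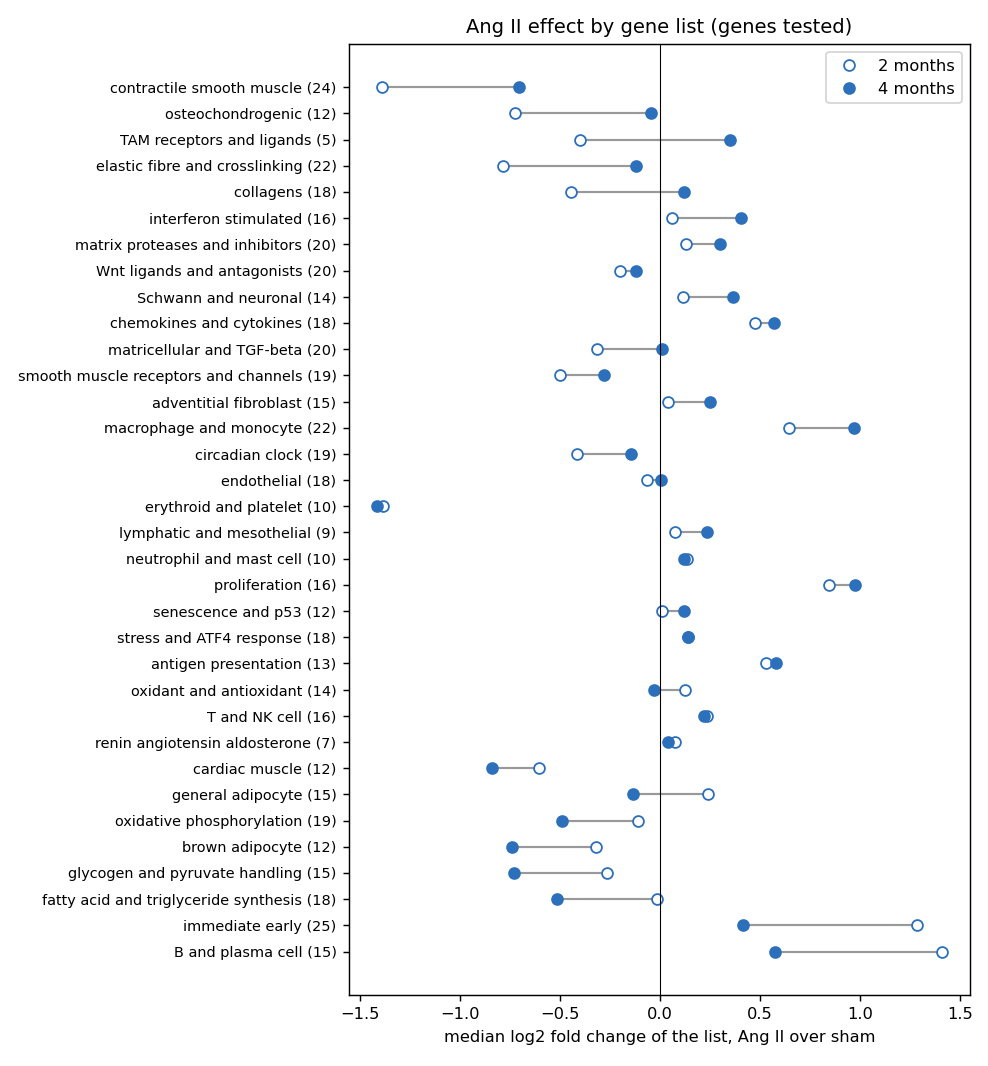
Median log2 fold change of Ang II over sham (x axis) of 34 gene lists at 2 months (open circles) and 4 months (filled circles), with the number of genes tested in brackets and lists ordered by their median interaction. The airway and skeletal muscle lists, whose sums varied widely within groups, are not drawn. Contractile, osteochondrogenic and elastic fibre lists are below 0 at 2 months and nearer 0 at 4 months, the immediate early list is above 0 at 2 months and nearer 0 at 4 months, and the macrophage list is above 0 at both.

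Of 7 genes of the renin-angiotensin system tested, 0 had an interaction at unadjusted p under 0.05. The median was -0.18, and 0.29 without sham replicate 4 at 4 months, where Ace, the enzyme that makes Ang II, passed at 1.11 (adjusted p = 0.0276) against 0.59 with it (adjusted p = 0.615). Agtr1a, the type 1 receptor through which Ang II acts, was 19.3, 20.4, 21.05 and 21.00 CPM in sham and 17.9, 30.4, 19.2 and 29.4 CPM in Ang II at 2 months, then 42.6, 22.4, 53.97 and 26.9 CPM in sham and 54.02, 31.04, 25.5 and 39.6 CPM in Ang II. Sham and Ang II overlapped at both times, and the spread was wider at 4 months. Its log2 fold changes were 0.25 ± 0.28 and 0.04 ± 0.28, with an interaction of -0.21 ± 0.39 (adjusted p = 0.894). Gene models that share exon bases with another gene are less certain where reads were counted without strand, a setting not given in the sources used here. In the GENCODE vM21 annotation the shared bases on the opposite strand were 3.8% of the exons of Banp, 10.7% of Cd9, 10.9% of Lurap1 and 3.3% of Eln.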

How the data were processed

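Total RNA of mouse aortas was made into libraries with a SMARTER mRNA-seq kit and sequenced, per the labels' protocols. The authors deposited raw counts per gene for 24 libraries, of which the 16 at 2 and 4 months were fitted. FastQC, cutadapt, STAR, featureCounts, DESeq2 and mm10 are named in the submitters' processing notes, and versions, annotation and strand setting were not given in the sources used here. Tables the authors deposited also hold log2 fold changes, fold ratios, p-values, a test score and a scaled mean count (a signal) for Ang II against sham at each time, of which signs and adjusted p-values were used for a count only.

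Counts were tested with edgeR 4.0.16 in R 4.3.3 (filterByExpr with a minimum count of 10 and a minimum total of 15, TMM scaling, glmQLFit and glmQLFTest over 4 groups with no covariate, Benjamini-Hochberg adjustment over 17153 of 37606 genes, threshold 0.05). DESeq2 1.42.0, limma 3.58.1 (voom with library quality weights), other scalings and filters, covariates and leaving out each library were tried as alternatives, and the fit was tested on simulated data. No 2 libraries of 1 group agreed within sampling noise. Symbols came from the deposited tables for 23514 genes and from the reference for 14015, and 77 had none.

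The comparison and the gene lists were chosen with earlier results of these data known. The named genes were the 10 of smallest p in each direction with a mean CPM of at least 1, the member of smallest interaction p in a list, and Acta2, Myh11, Eln, Col1a1, Cd68, Nr4a1, Axl, Mertk, Agtr1a and Scd1. Predicted genes were not named. Genes that passed at 2 or 4 months, and Per2, Ace, Cebpb, Hsph1 and Hspa1b, were named after their values were seen. Libraries at 6 months entered the fit of the others in 1 alternative only.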

Additional observations from a re-analysis of the deposited data

Results flagged for a closer look

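Of 156 groups of 4 libraries examined (29 genes and 10 list sums in 4 groups each), 12 (7.69%) had a library whose gap to its nearest neighbour exceeded the critical share of the group's range in Dixon's test. Chance alone gives about 1 in 20 such groups. Sham replicate 4 at 4 months accounted for 5 of them. It was highest for Acta2 at 1262 CPM (263 to 286 in the other 3 libraries), for Myh11 at 629 (132 to 154), for Eln at 392.4 (63.2 to 74.0), for Wwp2 at 69.7 (34.1 to 38.2) and for the elastic fibre list at a summed 2007 CPM (806 to 979). Ang II replicate 1 at 2 months was highest of its group for Acta2, at 806 CPM against 274 to 358.

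The other gaps were in metabolic genes and markers of other tissues. Fatty acid and triglyceride synthesis genes summed to 55621 CPM in sham replicate 4 at 2 months, against 16985 to 22046, and to 11481 CPM in Ang II replicate 3 at 4 months, which was below the 13008 to 13235 of its group. Lactb was 21.5 CPM in that same library, against 19.8 to 19.98. Airway epithelial genes summed to 11078 CPM in sham replicate 3 at 2 months (55.5 to 940 in the others) and to 1965 CPM in sham replicate 2 at 4 months (59.9 to 321). Liver genes, a list chosen after the values were seen, summed to 2438 CPM in Ang II replicate 4 at 4 months, against 56.7 to 239.9.

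Opposite separation, with the Ang II libraries on different sides of all sham libraries at the 2 times, occurred in 4 of those 29 genes. Their interactions were 1.29 for Banp, 0.81 for Tagln2, -1.24 for Enc1 and -1.29 for Lurap1 on the log2 scale, and none passed in edgeR, which tested the difference itself. Gpr182 and Pfkfb3, named above but outside those 29, were also separated in opposite directions. Their interactions of 0.64 and -0.86 did not pass either.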

How the results depend on the processing

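Counts of genes at adjusted p under 0.05 depended on the tool, the filter and single libraries. In the order interaction, Ang II effect at 2 months, Ang II effect at 4 months, sham between the times and Ang II between the times, edgeR gave 0, 323, 11, 346 and 1, DESeq2 gave 179, 722, 459, 977 and 175, and limma voom gave 467, 775, 840, 1266 and 326. The interaction count was 1 with DESeq2 size factors in edgeR, with a mean count of at least 5 as filter, with all 24 libraries in one fit and with an airway score as covariate. Ang II between the times gave 3 genes with DESeq2 size factors, 0 with no filter, 4 with 24 libraries, 3 with an adipocyte score as covariate and 0 with the airway score. Requiring a change of at least 1 on the log2 scale in either direction left 187, 6, 168 and 0 genes in the last 4 comparisons. With the adipocyte score 136 genes passed at 4 months, and fits of only the 8 libraries compared gave 114 at 4 months and 1 between sham groups.

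Of the alternatives chosen after the data were seen, leaving out the 2 libraries with liver transcripts gave 35 interactions, 1 gene at 4 months and 6 for Ang II between the times. A brown adipocyte score as covariate gave 1 gene at 4 months, 162 between sham groups and 23 between Ang II groups, and the cause of these shifts was not tested.

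Leaving out each library in turn gave 0 to 128 interactions, with 1 without sham replicate 4 or Ang II replicate 4 at 2 months, 128 without sham replicate 4 at 4 months and 0 in the other 13 fits. The effect at 2 months ranged from 107 to 434 genes: 107 without sham replicate 1, 197 without sham replicate 4, and 123, 121 and 155 without Ang II replicates 2, 3 and 4 at 2 months. At 4 months the count ranged from 5 to 184, with 184 without sham replicate 4 at 4 months and 102, 64 and 20 without Ang II replicate 2, sham replicate 4 and sham replicate 2 at 2 months. Sham between the times ranged from 0 to 934 (934 without sham replicate 4 at 4 months, 218 without Ang II replicate 4 at 4 months) and Ang II between the times from 0 to 10.

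The interactions of the 20 genes named by smallest p kept their direction in all 27 alternatives. The alternatives reuse the libraries that chose these genes, so a kept direction is largely fixed by that choice. Over these genes and 9 others, leaving out 1 library moved Cd68 between -0.058 (without sham replicate 4 at 2 months) and 0.393, and Agtr1a between -0.437 and 0.049 (without sham replicate 3 at 4 months).

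The replicate numbers did not pair the samples: over 24 pairs of libraries with one number, correlations of deviations ran from -0.41 to 0.58 (median -0.13), 5 were over 0.1, and in 4 of 24 comparisons of a library with the 4 of another group its own number gave the highest correlation. With the replicate number as a block, the counts were 0, 308, 5, 328 and 1.

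In simulated data with these library sizes and 4 libraries a group, the test recovered 16.4% of 2-fold interactions, and other depths were not simulated.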

Other observations

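Haemoglobin genes, which mark red blood cells, had Ang II effects of about the same size at both times without passing at either. Hbb-bs was 104 to 257 CPM in sham and 32.1 to 85.1 CPM in Ang II at 2 months, and 249.9 to 896 CPM in sham and 111 to 264 CPM in Ang II at 4 months. Its log2 fold changes were -1.34 (edgeR adjusted p = 0.145) and -1.42, with an interaction of -0.08. Hba-a1 had -1.42 and -1.52, and Hba-a2 had -1.59 and -1.40. These genes are near-identical copies that can share reads, so they are not separate observations. In all 4 haemoglobin genes the Ang II libraries at 2 months were below the 12 other libraries, and sham and Ang II overlapped at 4 months.

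Of 14 Schwann and neuronal genes 13 had an interaction above 0 (51.8% of all genes), and 1, the glial factor gene Sox10, had an unadjusted p under 0.05, at an interaction of 0.88. Its log2 fold changes were -0.14 at 2 months and 0.74 at 4 months. Skeletal muscle and airway genes had median interactions of -2.46 and 2.95, but their sums spanned 77.9 to 14315 CPM and 55.5 to 11078 CPM over the 16 libraries, with wide spread within groups.

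At 6 months, in a separate fit of 8 libraries, the 20 genes named by smallest interaction p had Ang II effects from -0.73 to 1.003 on the log2 scale. None passed, and the lowest edgeR adjusted p among them was 0.922. Mitochondrial reads made up 31.7% to 59.3% of those libraries, above the range at the earlier times.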
